A study of Mus musculus with 12 samples.

Results

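The genes described here are 10 members of the VEGF and angiopoietin systems, the main secreted signals and receptors of blood vessel growth. They comprised the ligands *Vegfa*, *Vegfb*, *Vegfc*, *Angpt1* and *Angpt2* and the receptors *Flt1*, *Kdr*, *Flt4*, *Tek* and *Tie1*. They were chosen by name, and each symbol was matched through its Ensembl identifier to 1 row of a count table of 49315 genes. All 10 were found, and all 10 were among the 20290 genes that passed the filter on low counts.

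Bulk RNA-sequencing, which reads the RNA of all cells of a sample together, was performed at 14 d post-stroke on the brain tissue of 12 mice, which the study's results section calls whole brains and its discussion calls hemispheres. All recipients were male CD45.1 Pep Boy mice (B6.SJL-Ptprca Pepcb/BoyJ), 8 to 12 weeks old at transplantation, whose heads were shielded during irradiation. Both groups received 90% CD45.1 *Tet2*+/+ marrow together with 10% CD45.2 marrow, which was *Tet2*+/+ in the 6 WT mice and *Tet2*-/- in the 6 *Tet2*-KO mice. The right middle cerebral artery was occluded for 30 min in every mouse, 8 to 10 weeks after transplantation, so the comparison holds no brain without a stroke. The knockout was thus carried by a share of the blood-forming cells, and the brain cells of the recipients, endothelium included, kept *Tet2* in both groups. Each library came from 1 mouse.

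VEGF ligands bind receptor tyrosine kinases on endothelial cells and drive their division, migration and permeability. Angiopoietins act through the receptor encoded by *Tek*, where *Angpt1* keeps vessels stable and *Angpt2* loosens that state in a way that depends on the presence of VEGF. After cerebral ischemia, both systems take part in leakage of the blood-brain barrier and in the sprouting of new vessels around the lesion. The question addressed here was whether these genes differed between the brains of *Tet2*-KO and WT mice.

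Total counts lay between 12000261 and 15340787 in WT mice and between 12625047 and 21049763 in *Tet2*-KO mice. On the first principal component of the 500 most variable genes, which held 89.3% of their variance, WT mouse 2 had the highest score and *Tet2*-KO mouse 5 lay within the range of the WT mice. Where leaving out these libraries changed a call, the value without them is given beside the result. Markers of neurons, astrocytes and oligodendrocytes were expressed in every library, as the tissue label requires. Levels are given as CPM, TMM-scaled counts set to a common library size, and fold changes as log2 of *Tet2*-KO over WT with their standard errors (SE).

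Of the 10 genes, 7 were lower and 3 higher in *Tet2*-KO mice, and 7 had a log2 fold change of less than 0.2 in size. In edgeR (quasi-likelihood F test), none had an adjusted p below 0.05, against 5 (0.0246%) of all genes tested. At an unadjusted p below 0.05, 3 of the 10 were lower (*Kdr*, *Angpt2* and *Angpt1*) and 0 were higher, where 12.2% of all genes were lower, 10.8% higher and 23.1% in either direction. The share among the 10 in either direction was thus near that of the whole table, and all 3 were on the lower side, which was not tested. The DESeq2 Wald test called 0 of the 10 and 4.25% of all genes at the adjusted threshold, and limma-voom with quality weights called 1, *Kdr*, and 9.92% of all genes. Values of *Tet2*-KO and WT mice overlapped for every one of the 10, whereas 1.09% of all genes had groups without overlap. The median log2 fold change was -0.08 over the 10 genes and 0.010 over all genes tested.

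**Figure D1:**
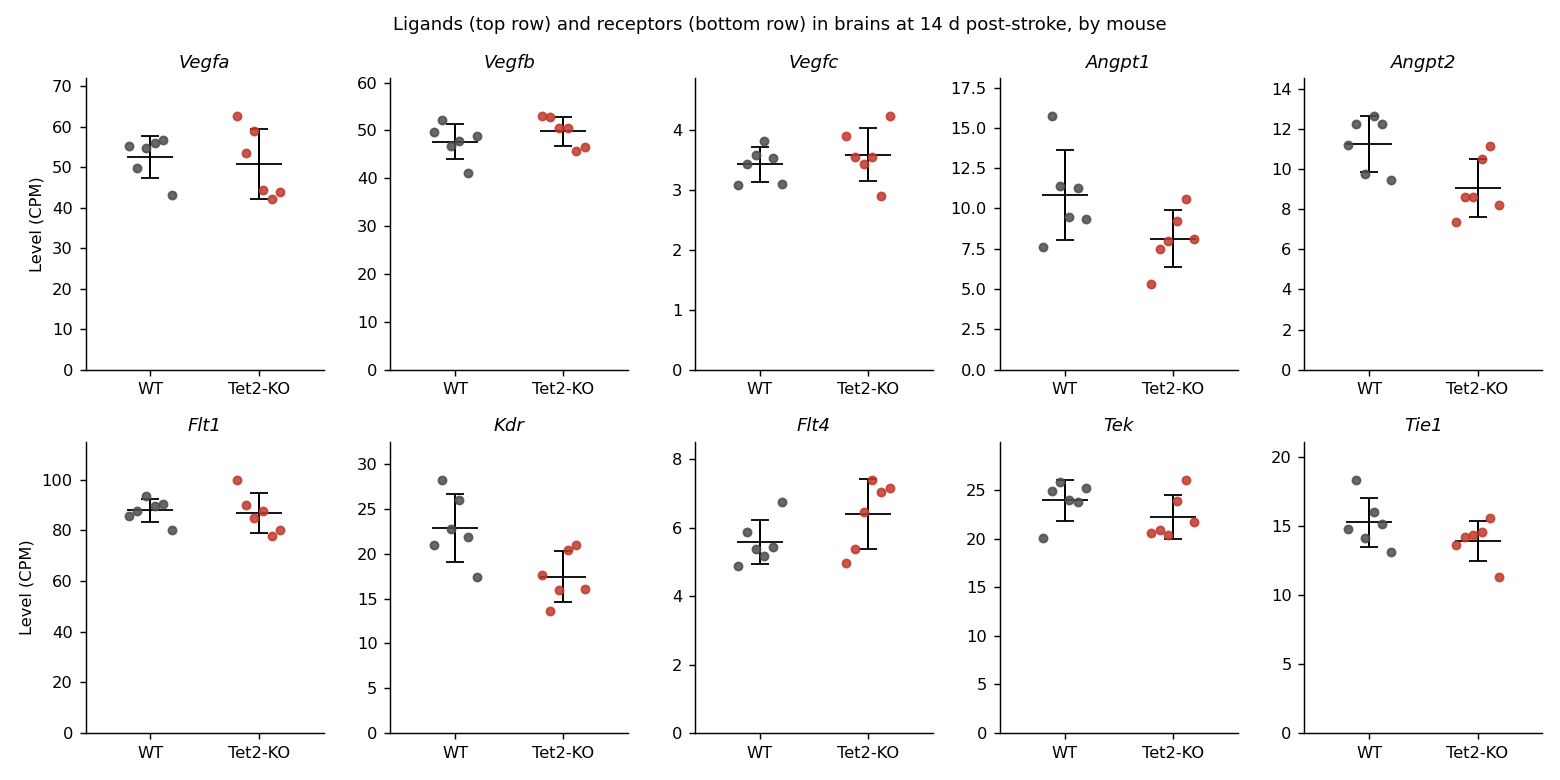
Level of each of the 10 genes in CPM (vertical axes from 0) in WT and *Tet2*-KO mice, with ligands in the top row and receptors in the bottom row. Points are single mice, and bars give the mean ± SD (n = 6 per group). The groups overlap in every panel, and *Kdr*, *Angpt1* and *Angpt2* show all 6 *Tet2*-KO mice below the WT mean.

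*Vegfa* encodes the principal VEGF, which binds both FLT1 and KDR. Its level was lowest at 43.2 CPM, with a median of 54.9 and a highest value of 56.6, in WT mice, and 42.0, 48.8 and 62.5 CPM in *Tet2*-KO mice. The *Tet2*-KO mice were split, with mice 1, 2 and 3 above the WT mean and mice 4, 5 and 6 below it, and 2 exceeded every WT mouse. The group averages were 52.5 ± 5.20 CPM in WT mice and 50.8 ± 8.71 CPM in *Tet2*-KO mice (SD, n = 6 each). The log2 fold change of -0.05 (SE 0.10, edgeR adjusted p = 0.827) was smaller than its error, with a 95% interval from -0.27 to 0.17.

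*Vegfb*, whose product binds FLT1 and not KDR, averaged 47.7 ± 3.68 CPM in WT mice and 49.8 ± 3.06 CPM in *Tet2*-KO mice (SD, n = 6 each). Its log2 fold change was 0.06 (SE 0.060, edgeR adjusted p = 0.555), with a 95% interval from -0.06 to 0.19. *Vegfc*, the lymphangiogenic ligand of FLT4, was at 3.43 ± 0.292 and 3.59 ± 0.450 CPM (SD, n = 6 each), with 37 to 73 counts per mouse. Its log2 fold change of 0.07 (SE 0.11, edgeR adjusted p = 0.787) had a 95% interval from -0.18 to 0.31, so values between those bounds were compatible with the data.

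*Angpt1*, the agonist ligand of TEK, is made largely by perivascular cells. Its lowest, median and highest levels were 7.60, 10.4 and 15.7 CPM in WT mice and 5.33, 8.04 and 10.6 CPM in *Tet2*-KO mice. All 6 *Tet2*-KO mice were below the WT mean and 2 were below every WT mouse, while the highest value of all belonged to WT mouse 2. Its log2 fold change was -0.42 (SE 0.17), with an unadjusted p of 0.0311 and an adjusted p of 0.178 by edgeR. The exact two-sided permutation test of log2(CPM + 0.1) over the 12 mice gave an unadjusted p of 0.0563 (n = 6 per group, smallest possible p 0.00216). Without WT mouse 2 the log2 fold change was -0.28 (edgeR adjusted p = 0.374).

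*Angpt1* lies on the minus strand at chr15:42424723-42676977 (GRCm38), and 737 of its exon bases (14.2%) are shared with *Gm17473*, an antisense gene on the opposite strand. The strand setting of the counting is not given in the sources used here, so reads in that stretch are uncertain.

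*Angpt2*, which endothelial cells make and which competes with ANGPT1 for TEK, had lowest, median and highest levels of 9.44, 11.7 and 12.6 CPM in WT mice and 7.37, 8.61 and 11.1 CPM in *Tet2*-KO mice. In 4 of the 6 *Tet2*-KO mice it was below every WT mouse, and in mice 4 and 5 it lay within the WT range. The group averages were 11.3 ± 1.38 CPM in WT mice and 9.07 ± 1.44 CPM in *Tet2*-KO mice (SD, n = 6 each). This gave a log2 fold change of -0.31 (SE 0.11, edgeR adjusted p = 0.140, unadjusted p = 0.0133), and the exact two-sided permutation test gave an unadjusted p of 0.0260 (n = 6 per group). Without *Tet2*-KO mouse 5 it was -0.38 and passed the edgeR threshold (adjusted p = 0.0412), in a comparison where 11.0% of all genes passed. Without both that mouse and WT mouse 2 it was -0.35 (edgeR adjusted p = 0.0719). *Angpt2* lies at chr8:18690263-18741562 within the *Mcph1* gene of the opposite strand, with 0 shared exon bases.

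Among the receptors, *Flt1* (VEGFR1) binds VEGF-A tightly but signals weakly, and its soluble form acts as a decoy. Its level averaged 87.9 ± 4.57 CPM in WT mice and 86.8 ± 7.96 CPM in *Tet2*-KO mice (SD, n = 6 each), and the values ran from 80.3 to 93.6 CPM and from 77.7 to 100.003 CPM. *Tet2*-KO mouse 1 was the highest of all 12 and mice 5 and 6 the lowest, so the WT values lay inside the spread of the *Tet2*-KO group. Between the groups the log2 fold change was -0.02 (SE 0.060, edgeR adjusted p = 0.893), and its sign turned with upper quartile scaling, where it was 0.02.

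*Kdr* (VEGFR2) encodes the receptor that carries most VEGF-A signals in endothelium. Its lowest, median and highest levels were 17.5, 22.3 and 28.3 CPM in WT mice and 13.7, 16.9 and 20.9 CPM in *Tet2*-KO mice. All 6 *Tet2*-KO mice were below the WT mean, and 3 (mice 2, 3 and 6) were below WT mouse 6, the lowest of the WT group. The group averages were 22.9 ± 3.81 CPM in WT mice and 17.5 ± 2.83 CPM in *Tet2*-KO mice (SD, n = 6 each).

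The log2 fold change of *Kdr* was -0.39 (SE 0.12), with an unadjusted p of 0.00569 and an adjusted p of 0.123 by edgeR. Its 95% interval ran from -0.65 to -0.13, and the exact two-sided permutation test gave an unadjusted p of 0.0173 (n = 6 per group). The adjusted p was 0.0278 with limma-voom, 0.0541 with DESeq2 and 0.0334 with edgeR without *Tet2*-KO mouse 5. Without both that mouse and WT mouse 2 it was 0.0524, where 7.59% of all genes passed the threshold.

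*Kdr* and *Flt1*, whose products share the ligand VEGF-A, had log2 fold changes of -0.39 and -0.02, neither with an edgeR adjusted p below 0.05. For this pair, the stretches before the transcription starts are shown. Both are the 250 bases before the start in RefSeq (GRCm38.p6), on the minus strand of chromosome 5, at chr5:75978456-75978705 for *Kdr* and chr5:147726012-147726261 for *Flt1*, written 5′ to 3′. Capitals mark the core of the hypoxia response element (ACGTG or GCGTG) and GGAAG, a longer form of the core bound by ETS factors, each on either strand. The shorter ETS core GGAA occurs at further sites in both stretches, which were neither marked nor counted.
Kdr: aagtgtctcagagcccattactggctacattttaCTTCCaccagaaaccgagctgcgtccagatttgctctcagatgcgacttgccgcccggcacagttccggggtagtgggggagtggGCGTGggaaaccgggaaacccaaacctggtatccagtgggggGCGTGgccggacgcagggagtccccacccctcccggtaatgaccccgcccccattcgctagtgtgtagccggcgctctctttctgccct
Flt1: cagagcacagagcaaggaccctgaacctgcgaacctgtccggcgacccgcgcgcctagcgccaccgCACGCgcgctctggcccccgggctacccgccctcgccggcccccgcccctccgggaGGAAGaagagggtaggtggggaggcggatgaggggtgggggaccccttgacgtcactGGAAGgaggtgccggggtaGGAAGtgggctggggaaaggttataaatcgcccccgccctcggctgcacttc
The *Kdr* stretch held 2 matches to the hypoxia element and 1 to GGAAG, and the *Flt1* stretch held 1 and 3. These counts do not compare the ETS sites of the 2 stretches, since the shorter core was not counted. Of 32851 RefSeq promoters of the same length, 38.6% held the hypoxia core and 64.1% GGAAG, and a match of so few letters is a description of the sequence only. Among the 8 of the 10 genes matched to RefSeq promoters, *Tie1* held the most GGAAG matches, 6, and *Tek* and *Vegfc* held no match to either. *Angpt1* and *Angpt2* were not matched.

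*Flt4* (VEGFR3), a receptor of lymphatic endothelium and of sprouting vessels, was the receptor whose value was higher in *Tet2*-KO mice. Its lowest, median and highest levels were 4.89, 5.41 and 6.74 CPM in WT mice and 4.96, 6.76 and 7.41 CPM in *Tet2*-KO mice. *Tet2*-KO mice 4, 5 and 6 were above every WT mouse and mice 1 and 2 were below the WT mean. The log2 fold change was 0.19 (SE 0.12, edgeR adjusted p = 0.349), and its 95% interval ran from -0.06 to 0.45. The exact two-sided permutation test gave an unadjusted p of 0.136 (n = 6 per group).

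*Tek* (TIE2), the angiopoietin receptor, averaged 23.9 ± 2.06 CPM in WT mice and 22.2 ± 2.26 CPM in *Tet2*-KO mice (SD, n = 6 each). Of the 6 *Tet2*-KO mice, 5 were below the WT mean, but WT mouse 1 was lower than all of them at 20.01 CPM. The log2 fold change was -0.11 (SE 0.077, edgeR adjusted p = 0.434). *Tie1*, a receptor without an established strong ligand that modifies TEK signalling, was at 15.3 ± 1.81 and 13.9 ± 1.45 CPM (SD, n = 6 each), with a log2 fold change of -0.13 (SE 0.091, edgeR adjusted p = 0.409). Here too 5 of 6 *Tet2*-KO mice were below the WT mean and the ranges overlapped.

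**Figure D2:**
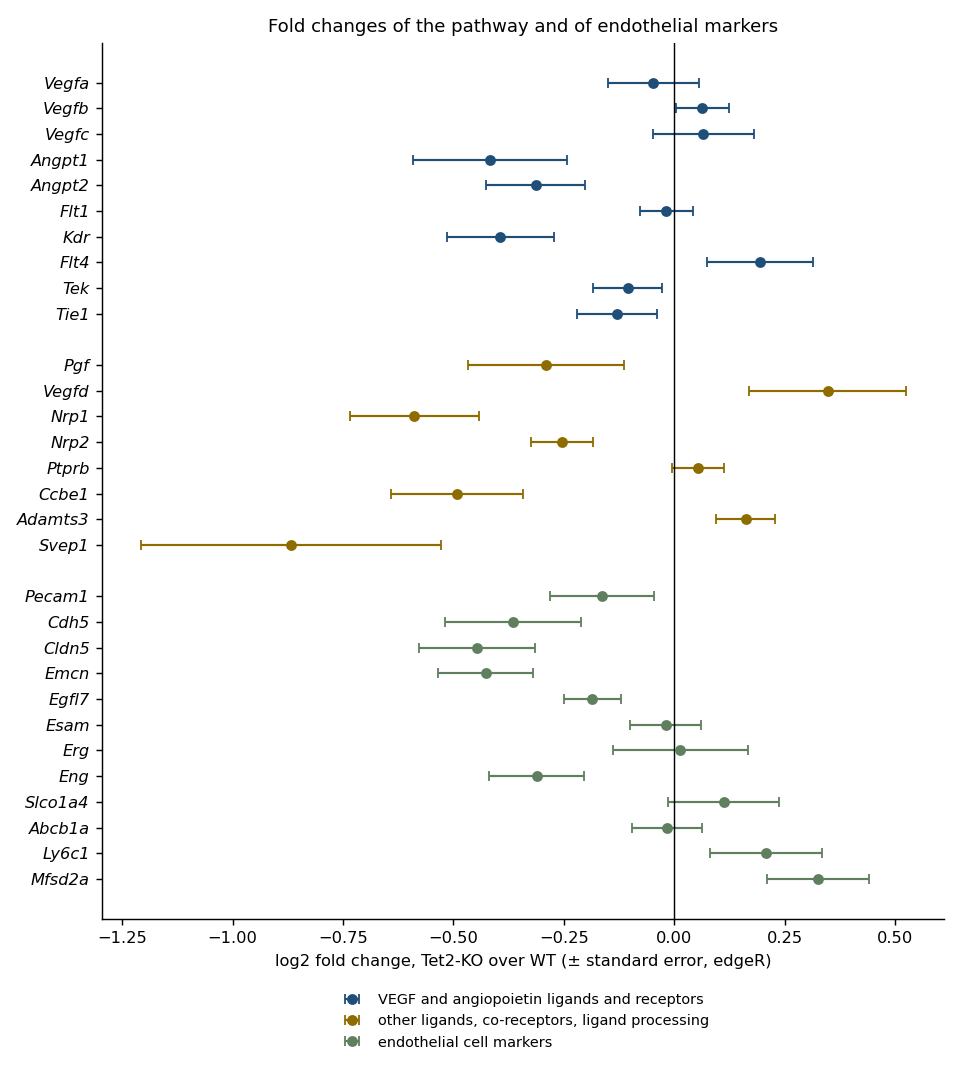
Log2 fold change of *Tet2*-KO over WT with its standard error (edgeR, n = 6 per group) for the 10 ligands and receptors, the other ligands, co-receptors and ligand-processing genes, and the endothelial markers. *Kdr*, *Angpt1* and *Angpt2* lie between -0.42 and -0.31, and *Nrp1* at -0.59.

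Levels of different genes were compared as RPKM, CPM divided by exon length in kilobases. In WT mice *Vegfb* was highest at 29.7 ± 2.29 RPKM (SD, n = 6), followed by *Vegfa* at 12.3 ± 1.21, *Flt1* at 6.51 ± 0.338 and *Tek* at 5.08 ± 0.438 RPKM, and none of these overlapped with its neighbour in the order. *Tie1* (3.10 RPKM), *Angpt2* (3.05), *Kdr* (2.53), *Angpt1* (2.08) and *Vegfc* (1.40) followed, each overlapping with the next, so that their order is not settled beyond the spread between mice. *Flt4* was lowest at 0.679 ± 0.0794 RPKM (SD, n = 6) and did not overlap with *Vegfc*. The order of the means was the same in *Tet2*-KO mice, and the same neighbours overlapped.

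**Figure D3:**
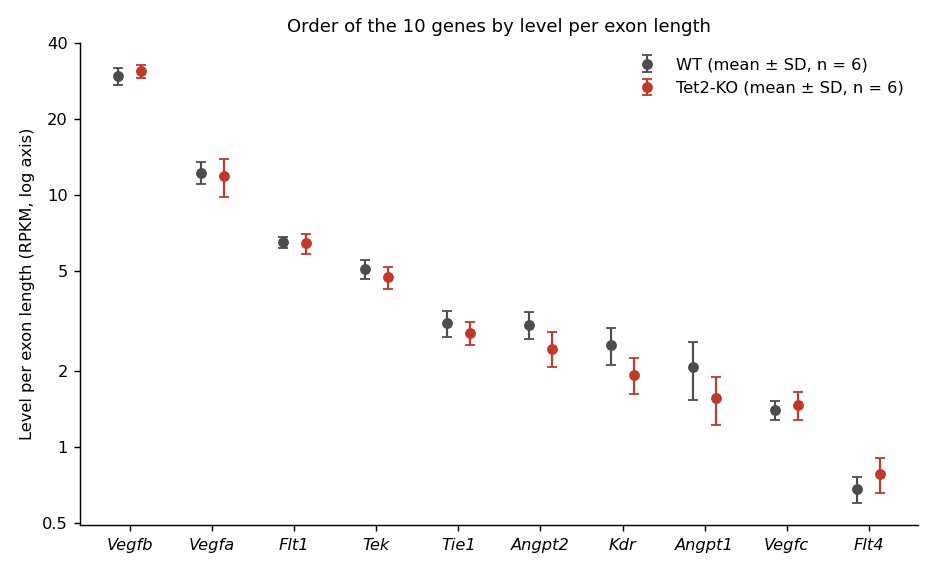
Mean level per exon length (RPKM, log axis) of the 10 genes in WT and *Tet2*-KO mice, ordered by the WT mean, with bars for the SD (n = 6 per group). The genes span from 29.7 RPKM for *Vegfb* to 0.679 RPKM for *Flt4* in WT mice, and the order is the same in both groups.

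A ratio of 2 genes within 1 library does not depend on library scaling, and 4 such ratios were compared. *Flt1* had 3.88 reads for each read of *Kdr* in WT mice and 5.00 in *Tet2*-KO mice. On the log2 scale the ratio ran from 1.63 to 2.20 in WT mice and from 1.89 to 2.72 in *Tet2*-KO mice, where 4 of 6 mice were above every WT mouse. The difference was 0.37 with p = 0.0325 in an exact two-sided permutation over all 12 mice (n = 6 each), and it did not pass after adjustment over the 4 ratios (adjusted p = 0.130). Leaving out 1 mouse at a time gave values from 0.29 without *Tet2*-KO mouse 2 to 0.45 without *Tet2*-KO mouse 5, and the unadjusted p was above 0.05 without WT mouse 2 (0.0693), WT mouse 4 (0.0649) or *Tet2*-KO mouse 1 (0.0628), 2 (0.0649), 3 (0.0628) or 6 (0.0563), exact tests with 5 mice in that group.

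The other ratios differed by less than their spread. *Angpt2* over *Angpt1*, the balance of the TEK ligands, was 0.09 ± 0.36 (SD) on the log2 scale in WT mice and 0.18 ± 0.16 in *Tet2*-KO mice, with p = 0.565 in the same exact two-sided test (n = 6 each). *Tek* over *Tie1* differed by 0.02 (p = 0.833) and *Vegfa* over *Vegfb* by -0.12 (p = 0.316) in that exact test. The angiopoietins, with log2 fold changes of -0.42 and -0.31, thus kept a ratio whose difference could not be separated from the spread between mice.

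**Figure D4:**
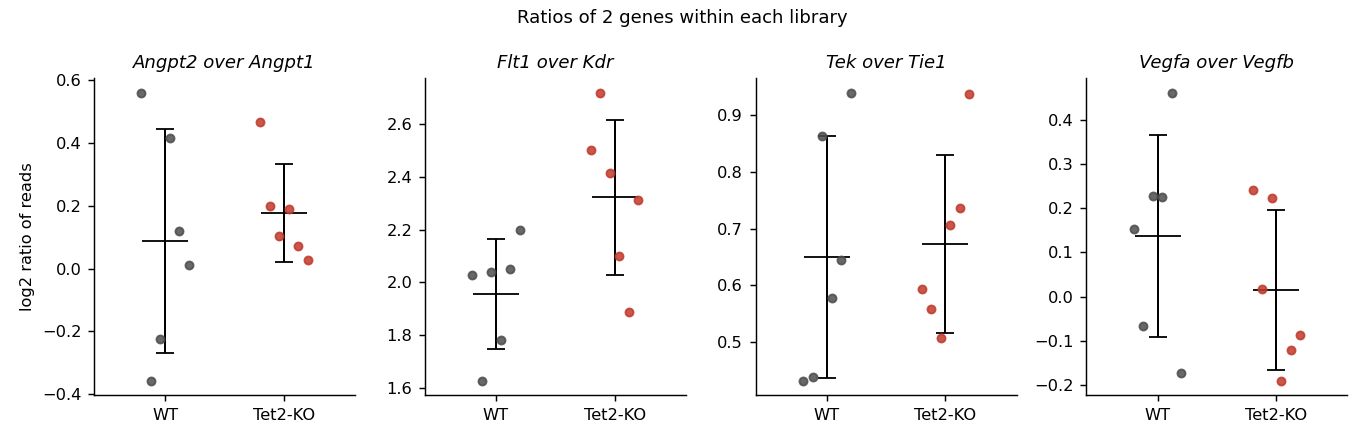
Log2 ratio of the reads of 2 genes within each library (vertical axes do not start at 0), for WT and *Tet2*-KO mice. Points are single mice and bars give the mean ± SD (n = 6 per group). For *Flt1* over *Kdr*, 4 of 6 *Tet2*-KO mice lie above every WT mouse, and for the other ratios the points of both groups overlap.

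Because the receptors and *Angpt2* are known from endothelial cells, the levels were set beside 12 endothelial markers, although VEGF ligands in brain also come from astrocytes and neurons. In bulk tissue, fewer cells of a type and less RNA per cell cannot be told apart. Of the 12 markers, 5 were lower and 1 higher at an unadjusted edgeR p below 0.05, against 12.2% lower and 10.8% higher among all genes. None had an edgeR adjusted p below 0.05, and their median log2 fold change was -0.09. DESeq2 called 2 (4.25% of all genes) and limma-voom 4 of them (9.92% of all genes). Without *Tet2*-KO mouse 5 edgeR called 4 (11.0% of all genes), and 3 (7.59% of all genes) without both that mouse and WT mouse 2. Named after their values were seen, the 5 were *Cldn5* (log2 fold change -0.45), *Emcn* (-0.43), *Cdh5* (-0.37), *Eng* (-0.31) and *Egfl7* (-0.19), and the 1 was *Mfsd2a* (0.33). *Emcn*, a surface sialomucin of capillary and venous endothelium, was lower in all 6 *Tet2*-KO mice than in any WT mouse. Groups without overlap, in either direction, were seen for 1.09% of all genes. The summed level ran from 305 to 379 CPM in WT mice and from 261 to 357 CPM in *Tet2*-KO mice. The markers with the highest levels were the organic anion transporter *Slco1a4*, the TGF-beta co-receptor *Eng* and the efflux pump *Abcb1a*. Their log2 fold changes were 0.11 for *Slco1a4* (edgeR adjusted p = 0.633), -0.31 for *Eng* (edgeR adjusted p = 0.136) and -0.02 for *Abcb1a* (edgeR adjusted p = 0.926).

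The mean log2 CPM of the 12 markers was then compared with each of the 10 genes across the 12 mice, as 10 correlations. Both measures came from the same library and share its scaling. The marker level was also not separate from that of other cells. WT mouse 2 had the highest and *Tet2*-KO mouse 1 the lowest summed level of the endothelial, pericyte and smooth muscle, lymphatic, fibroblast, microglia, myeloid and oligodendrocyte markers, and the reverse held for the neuron and red blood cell markers. The part of each cell type in the correlations was not tested.

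*Angpt1* gave the highest pooled Pearson's r of the 10, and *Tek* the highest pooled Spearman's rho. *Angpt1* had r = 0.855 (permutation p = 0.00052, adjusted over the 10 correlations 0.0052) and Spearman's rho = 0.769 (permutation p = 0.00466, adjusted 0.0233). Its r was 0.651 without WT mouse 2 and *Tet2*-KO mouse 1, the mice farthest from the median marker level, 0.794 within WT mice (exact permutation p = 0.108, n = 6) and 0.932 within *Tet2*-KO mice (exact permutation p = 0.00833, n = 6).

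*Tek* gave r = 0.807 (permutation p = 0.00136, adjusted 0.0068) and rho = 0.797 (permutation p = 0.00316, adjusted 0.0233), and r was 0.819 without those 2 mice. Within the groups its r was 0.505 in WT mice (exact permutation p = 0.161, n = 6) and 0.941 in *Tet2*-KO mice (exact permutation p = 0.00833, n = 6). *Angpt2* gave r = 0.774 (permutation p = 0.00338, adjusted 0.0113) and rho = 0.636 (permutation p = 0.0291, adjusted 0.0726), and r was 0.590 without those 2 mice. Within WT mice its r was 0.165 (exact permutation p = 0.897, n = 6) and within *Tet2*-KO mice 0.964 (exact permutation p = 0.0167, n = 6), so that relation passed 0.05 within *Tet2*-KO mice and not within WT mice, a difference that was not tested.

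*Kdr* gave r = 0.675 (permutation p = 0.0176, adjusted 0.0409) and rho = 0.601 (permutation p = 0.0431, adjusted 0.0863), and r was 0.648 without those 2 mice. Within the groups its r was 0.518 in WT mice and 0.674 in *Tet2*-KO mice (exact permutation p = 0.286 and 0.139, n = 6 each), neither past 0.05. *Vegfa* ran the other way, with r = -0.648 (permutation p = 0.0205, adjusted 0.0409) and rho = -0.650 (permutation p = 0.0261, adjusted 0.0726), and r was -0.590 without those 2 mice. Its r was -0.494 within WT mice (exact permutation p = 0.367, n = 6) and -0.895 within *Tet2*-KO mice (exact permutation p = 0.00833, n = 6). The other 5 genes had pooled r between -0.492 for *Flt1* and 0.535 for *Tie1* with no p below 0.05, and *Flt4* reached 0.816 within *Tet2*-KO mice (exact permutation p = 0.0278, n = 6).

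With the marker level as a covariate in edgeR, the log2 fold change was -0.28 for *Kdr* (adjusted p = 0.214), -0.19 for *Angpt1* (adjusted p = 0.508) and -0.20 for *Angpt2* (adjusted p = 0.36). In the same fit it was -0.20 for *Vegfa* (adjusted p = 0.157) and 0.32 for *Flt4* (adjusted p = 0.170). Of the 10 genes 0 passed the adjusted threshold in it, against 2.01% of all genes.

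**Figure D5:**
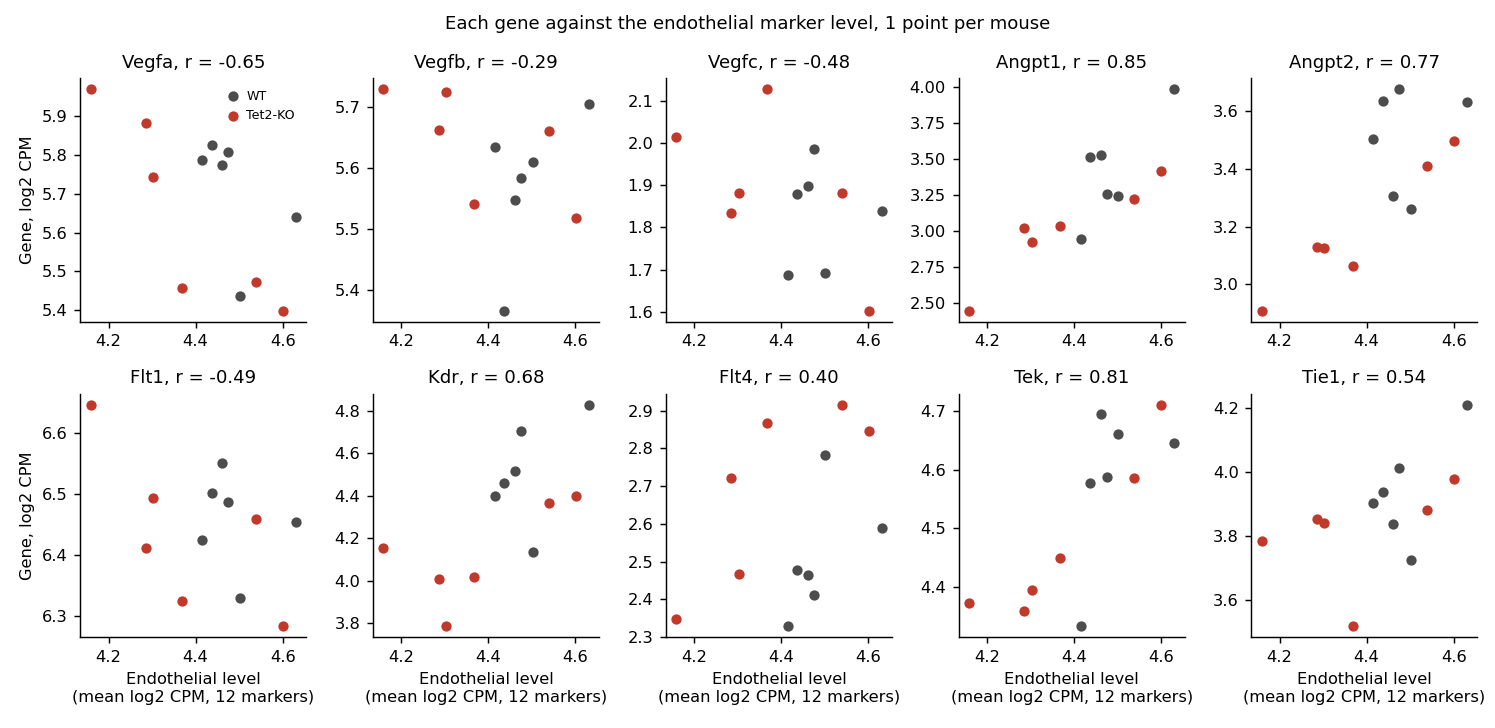
Log2 CPM of each gene (vertical axes) against the mean log2 CPM of 12 endothelial markers (horizontal axes), 1 point per mouse, with Pearson's r over the 12 mice above each panel. *Angpt1*, *Tek*, *Angpt2* and *Kdr* run upward with the marker level, and *Vegfa* runs downward.

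Of 53 further genes of the pathway in 4 lists, 51 passed the filter on low counts (all but *Angpt4* and *Kcne3*). At an unadjusted edgeR p below 0.05, 11 were lower and 3 higher in *Tet2*-KO mice, beside 12.2% lower and 10.8% higher among all genes. In either direction, the 14 of 51 were near the 23.1% of the whole table. By side, the share was larger than in the whole table for lower genes and smaller for higher genes, which was not tested. The median log2 fold change of the 51 was -0.03. None had an edgeR adjusted p below 0.05, whereas DESeq2 called 6 (4.25% of all genes) and limma-voom 10 (9.92% of all genes). Without *Tet2*-KO mouse 5 edgeR called 10 of them (11.0% of all genes), and 8 (7.59% of all genes) without both that mouse and WT mouse 2.

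Among 8 other ligands, co-receptors and ligand-processing genes, 4 had an unadjusted p below 0.05 on the lower side and 1 on the higher side (23.1% of all genes on either side), with a median log2 fold change of -0.27. *Nrp1*, which encodes neuropilin 1, a co-receptor that joins VEGF-A to KDR, had lowest, median and highest levels of 83.6, 93.3 and 111 CPM in WT mice and 51.3, 57.9 and 97.2 CPM in *Tet2*-KO mice. With the exception of *Tet2*-KO mouse 5, every mouse of that group had less *Nrp1* than any WT mouse. Its log2 fold change was -0.59 (SE 0.15), with an adjusted p of 0.112 by edgeR, 0.00723 by DESeq2 and 0.00551 by limma-voom, and it was -0.75 without *Tet2*-KO mouse 5 (edgeR adjusted p = 0.000262) and -0.70 without both that mouse and WT mouse 2 (edgeR adjusted p = 4.75e-05).

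*Nrp2*, the co-receptor shared with VEGF-C, had a log2 fold change of -0.26 (SE 0.070, adjusted p = 0.115 by edgeR, 0.0371 by DESeq2 and 0.0132 by limma-voom), and the edgeR adjusted p was 0.0162 without *Tet2*-KO mouse 5 and 0.0186 without both mice. *Ccbe1*, needed for the processing of VEGF-C, had one of -0.49 (SE 0.15, adjusted p = 0.123 by edgeR, 0.0454 by DESeq2 and 0.0153 by limma-voom), and the edgeR adjusted p was 0.00764 without *Tet2*-KO mouse 5 and 0.0084 without both mice. For each of these genes *Tet2*-KO mouse 5 was the highest of its group and the other 5 lay below the WT range. *Adamts3*, the protease that cleaves VEGF-C, was on the other side at 0.16 (SE 0.067, edgeR adjusted p = 0.172).

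Of 14 genes of intracellular signalling, 2 had an unadjusted p below 0.05 on the lower side and 1 on the higher side, no larger a share than the 23.1% of all genes, with a median log2 fold change of -0.03. *Sh2d2a*, an adaptor that binds KDR and is also expressed in T cells, had a log2 fold change of -1.13 (SE 0.30, adjusted p = 0.112 by edgeR, 0.0251 by DESeq2 and 0.0183 by limma-voom) with means of 1.74 CPM in WT mice and 0.793 CPM in *Tet2*-KO mice, and the edgeR adjusted p was 0.0226 without *Tet2*-KO mouse 5 and 0.0341 without both mice. *Dok2*, an adaptor of TEK and of blood cells, was at -0.45 (SE 0.16, adjusted p = 0.138 by edgeR, 0.110 by DESeq2 and 0.0356 by limma-voom), and the edgeR adjusted p was 0.0211 without *Tet2*-KO mouse 5 and 0.0356 without both mice. *Src*, a kinase active in many cell types, was at 0.16 (SE 0.054, adjusted p = 0.132 by edgeR, 0.108 by DESeq2 and 0.0461 by limma-voom), and did not pass with edgeR without *Tet2*-KO mouse 5 (0.0506) or without both mice (0.0804).

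Of 11 VEGF-induced and tip cell genes, 3 had an unadjusted p below 0.05 on the lower side and 0 on the higher side. That share was near the 23.1% of all genes in either direction, and the median log2 fold change was -0.14. The homeobox gene *Hlx* averaged 7.27 ± 2.25 CPM in WT mice and 3.55 ± 1.495 CPM in *Tet2*-KO mice (SD, n = 6 each), a log2 fold change of -1.04 (SE 0.26, adjusted p = 0.110 by edgeR, 0.00748 by DESeq2 and 0.0068 by limma-voom). Without *Tet2*-KO mouse 5 it was -1.23 (edgeR adjusted p = 0.012) and without both mice -1.05 (edgeR adjusted p = 0.00763). *Dll4*, the Notch ligand of tip cells, was at -0.47 (SE 0.14, edgeR adjusted p = 0.121) and passed in none of these settings, and all *Tet2*-KO mice were between 2.42 and 3.31 CPM against 2.78 to 4.66 CPM in WT mice. *Plaur*, the urokinase receptor, which leukocytes also express, was at -1.01 (SE 0.35, adjusted p = 0.138 by edgeR, 0.0469 by DESeq2 and 0.0369 by limma-voom), and the edgeR adjusted p was 0.0322 without *Tet2*-KO mouse 5 and 0.0307 without both mice.

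Hypoxia is the classic inducer of *Vegfa*, and of 18 hypoxia factors and hypoxia-induced genes 2 had an unadjusted p below 0.05 on the lower side and 1 on the higher side, a smaller share than the 23.1% of all genes. Their median log2 fold change was -0.0009. *Hif1a*, the oxygen-regulated subunit of the factor, averaged 159 ± 20.6 CPM in WT mice and 129 ± 19.6 CPM in *Tet2*-KO mice (SD, n = 6 each), a log2 fold change of -0.30 (SE 0.10, adjusted p = 0.136 by edgeR, 0.0819 by DESeq2 and 0.0287 by limma-voom). Without *Tet2*-KO mouse 5 it was -0.36 (edgeR adjusted p = 0.0382) and without both mice -0.28 (edgeR adjusted p = 0.0423). *Ndrg1*, a hypoxia-induced gene that oligodendrocytes also express, was at -0.23 (SE 0.095, edgeR adjusted p = 0.178), and the glucose transporter gene *Slc2a1* at 0.20 (SE 0.079, edgeR adjusted p = 0.167), and neither passed in any of these settings.

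Myeloid and phagocyte markers and fibroblast markers were lower in *Tet2*-KO mice. The values of *Nrp1*, *Hlx*, *Plaur*, *Hif1a*, *Kdr* and the angiopoietins were also lower there. No list of lymphocyte markers was made. Of 7 myeloid and phagocyte markers, 6 were lower at an unadjusted edgeR p below 0.05, against 12.2% of all genes, with a median log2 fold change of -1.16. Their summed level ran from 1097 to 2821 CPM in WT mice and from 82.2 to 1606 CPM in *Tet2*-KO mice. The highest of these *Tet2*-KO values belonged to mouse 5, and the next was 649 CPM in mouse 4. All 6 fibroblast markers were lower at the same threshold, with a median of -1.33 and sums from 581 to 1313 CPM in WT mice and from 147 to 735 CPM in *Tet2*-KO mice. Neither list held a gene with an edgeR adjusted p below 0.05. DESeq2 called 0 of the 6 myeloid markers it gave an adjusted p and 1 of the fibroblast markers (4.25% of all genes). Limma-voom called all 7 and all 6 (9.92% of all genes). Without *Tet2*-KO mouse 5 edgeR called 5 and 6 (11.0% of all genes), and without both mice 2 and 4 (7.59% of all genes). These marker levels are not counts of cells. In stained brain sections from the same time after stroke, the paper reports similar numbers of macrophages and T cells in both groups. The part of myeloid cells and fibroblasts in the values of the pathway genes was not tested.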

How the data were processed

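Brain libraries of 12 mice at 14 d post-stroke were analysed, with groups from titles and genotype entries; the treatment entry names control cells for all 12 mice, against the title and genotype of the *Tet2*-KO mice, and was not used. Per the paper and the submitters' processing notes, libraries were made after removal of ribosomal RNA, paired reads were trimmed (Trimmomatic 0.36) and aligned to mm10 (STAR 2.5.2b), and the authors counted those that mapped uniquely to exons (featureCounts of Subread 1.5.2). They deposited whole-number counts per gene without normalization. Symbols, coordinates and exon lengths came from GENCODE M21 (GRCm38).

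From the counts, genes were kept by filterByExpr, scaled by TMM and tested in edgeR 4.0.16 (quasi-likelihood F test, robust, no covariate, R 4.3.3), with Benjamini-Hochberg adjustment over 20290 genes and a threshold of 0.05. SEs were derived from the log2 fold change and F. Ratios used a pseudocount of 0.5 counts. Marker correlations used log2 CPM with a prior count of 2. Alternatives were DESeq2 1.42.0, limma-voom (limma 3.58.1), other scalings and filters, a replicate block, the endothelial covariate and each mouse left out. The tests were tested on simulated counts, where DESeq2 made the largest share of false calls of the 3 tools. Those counts were drawn gene by gene with dispersions estimated by edgeR and without outlying mice. That order therefore need not hold for these libraries.

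The genes and lists were chosen with earlier results of these data known. Named by rule are the 10 genes, from each pathway list up to 3 genes per direction with the smallest p below 0.05, and the 3 endothelial markers with the highest CPM. Endothelial markers with an unadjusted edgeR p below 0.05 and the lymphatic markers were named outside this rule, after their values were seen. No library of a group matched another within sampling noise. Same-numbered mice of the 2 groups did not deviate together, so the numbers were not taken as pairs.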

Additional observations from a re-analysis of the deposited data

Results flagged for a closer look

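*Tek* in WT mouse 1, at 20.01 CPM, stood apart from the other 5 WT mice, which lay between 23.7 and 25.8 CPM. Its gap to the nearest of them was large for the range of the group (Dixon's criterion at the 95% level), in 1 of 28 groups examined, where chance gives about 1 in 20.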

How the results depend on the processing

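With the deposited counts, *Kdr*, *Angpt1* and *Angpt2* were lower with *Tet2*-KO BM cells under every test, scaling, filter and covariate tried and without any one mouse. The log2 fold change without 1 mouse ran from -0.46 to -0.32 for *Kdr*, from -0.50 to -0.28 for *Angpt1* and from -0.38 to -0.26 for *Angpt2*. The number of the 10 genes past the adjusted threshold was 1 with limma-voom, and 0 to 2 without 1 mouse. The number of pathway genes past it was 6 with DESeq2, 10 with limma-voom, 2 with the endothelial covariate and 8 without both WT mouse 2 and *Tet2*-KO mouse 5 (an alternative added after seeing the data), and 0 to 10 without 1 mouse; the cause was not tested.

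The signs of fold changes and of ratios turned where values were near 0. *Flt1* was 0.016 with upper quartile scaling, which moved the median of all genes from 0.010 to 0.043, and 0.010 without both mice, and ran from -0.061 to 0.012 without 1 mouse, and *Vegfa* from -0.11 to 0.0012. *Angpt2* over *Angpt1* ran from -0.0001 to 0.18 without 1 mouse. *Tek* over *Tie1* ran from -0.029 to 0.082, and was -0.031 without both. *Flt1* over *Kdr* ran from 0.29 to 0.45 without 1 mouse. Within WT mice, the correlation with the marker level was 0.593 for *Vegfb* and 0.076 for *Vegfc*, against -0.294 and -0.478 over all mice, and 0 genes had a p below 0.05 there, against 5 within *Tet2*-KO mice and 5 over all mice. With the replicate block, 0 of the 10 and 0 pathway genes passed, and *Flt1* over *Kdr* kept its difference of 0.37 with an exact sign-flip permutation p of 0.0938 (n = 6 pairs). Same-numbered mice had correlations of their deviations between -0.169 and 0.229. Low counts, as for *Vegfc*, limit what could be seen.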

Other observations

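At an unadjusted edgeR p below 0.05, 12.2% of all genes were lower and 10.8% higher. Of 11 pericyte and smooth muscle markers, 2 were lower at that threshold, with a median log2 fold change of -0.18. Their sums ran from 390 to 544 CPM in WT mice and from 276 to 428 CPM in *Tet2*-KO mice. Of the 4 lymphatic endothelial markers, 3 were tested and 1 was lower, with sums of 99.3 to 115 CPM in WT mice and 78.7 to 110 CPM in *Tet2*-KO mice. Over all mice *Prox1* averaged 76.6 CPM and *Pdpn* 22.5 CPM, whereas *Lyve1* was at 1.19 CPM and *Ccl21a* had 0 counts. The sums thus rested mainly on *Prox1* and *Pdpn* and were not taken as a level of lymphatic endothelium. All 7 neuron markers were higher at the same threshold, with a median log2 fold change of 0.25, and 3 of 5 red blood cell markers were higher, with a median of 0.54. Of 8 astrocyte markers 1 was higher, of 6 choroid plexus markers 2 were lower, and of 6 microglia and 5 oligodendrocyte markers 0 passed. None of these genes had an edgeR adjusted p below 0.05. DESeq2 called 2 pericyte and smooth muscle, 1 lymphatic and 1 choroid plexus marker (4.25% of all genes). Limma-voom called 2 pericyte and smooth muscle, 1 lymphatic, 2 neuron and 2 choroid plexus markers (9.92% of all genes). Without *Tet2*-KO mouse 5, edgeR called 2 pericyte and smooth muscle and 2 neuron markers (11.0% of all genes). It called 2 of each without both that mouse and WT mouse 2 (7.59% of all genes).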
